A study of Mus musculus with 12 samples.

Results

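The long and medium chain acyl-CoA synthetases are the enzymes that join a fatty acid to coenzyme A, and the genes considered here are Acsl1, Acsl3, Acsl4, Acsl5 and Acsl6 of the long chain family and Acsm1, Acsm2, Acsm3 and Acsm5 of the medium chain family. A gene was read from an array row annotated to that 1 gene symbol, and the brightest row over all 12 arrays stood for the gene. By this rule 7 of the 9 genes were measured, among 19938 genes in all, each of the 7 with 1 row. Acsl3 was annotated only on a row shared with Utp14b and Acsl1 was not on an annotated row, so neither was analysed here. Acsm2 was also annotated on 1 row with several symbols, which was not used. The 12 arrays came from whole livers of fed male C57BL/6J mice, 6 injected with an adenovirus for ChREBP and 6 with an adenovirus for GFP, the control protein, through the tail vein 3 weeks earlier. The labels call the arrays of a group biological replicates and give an age of 8 weeks, which may be the age at injection. Which species and isoform of ChREBP the virus carried is not given in the sources read, and the injected dose was not legible. The comparison asks how these genes were expressed in livers with an excess of ChREBP.

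A free fatty acid can be neither oxidised nor built into lipid until a synthetase has made its acyl-CoA. The Acsl enzymes act on long chains and sit on the endoplasmic reticulum, the outer mitochondrial membrane and other membranes, while the Acsm enzymes lie in the mitochondrial matrix and act on medium chains and on aromatic acids such as benzoate, whose acyl-CoA is then joined to glycine. ChREBP, encoded by Mlxipl, is a transcription factor that responds to glucose and turns on genes of glycolysis and fatty acid synthesis through E-box pairs in their promoters.

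The promoters of 3 members are shown because they belong to the member with the largest fall (Acsm1), the only member that was higher in ChREBP livers (Acsl5) and the only member whose window held an E-box (Acsm5). Each is a RefSeq window on GRCm38.p6 that takes in 250 bases before the annotated start and 50 after it, on the plus strand, at chr7:119617562-119617861 for Acsm1, chr7:119526015-119526314 for Acsm5 and chr19:55253119-55253418 for Acsl5. Capitals mark a match to the STAT motif TTCNNNGAA in Acsm1 and to the E-box CACGTG in Acsm5, and Acsl5 held no match.
Acsm1: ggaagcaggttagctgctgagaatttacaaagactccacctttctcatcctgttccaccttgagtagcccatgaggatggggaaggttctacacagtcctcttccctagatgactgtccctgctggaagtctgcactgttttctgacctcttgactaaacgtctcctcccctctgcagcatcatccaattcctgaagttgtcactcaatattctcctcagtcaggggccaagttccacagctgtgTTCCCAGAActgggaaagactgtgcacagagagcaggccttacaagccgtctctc
Acsm5: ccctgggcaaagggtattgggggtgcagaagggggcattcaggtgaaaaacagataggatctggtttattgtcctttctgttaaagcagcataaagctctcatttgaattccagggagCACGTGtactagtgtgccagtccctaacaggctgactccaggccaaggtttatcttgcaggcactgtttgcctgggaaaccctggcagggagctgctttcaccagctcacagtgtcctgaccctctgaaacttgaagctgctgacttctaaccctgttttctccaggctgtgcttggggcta
Acsl5: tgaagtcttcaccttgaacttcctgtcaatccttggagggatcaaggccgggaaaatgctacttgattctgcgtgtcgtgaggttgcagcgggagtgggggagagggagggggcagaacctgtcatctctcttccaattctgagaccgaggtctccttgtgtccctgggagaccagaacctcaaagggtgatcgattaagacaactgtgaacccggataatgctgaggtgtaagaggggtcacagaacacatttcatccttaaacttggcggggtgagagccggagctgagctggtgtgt

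All 7 measured members had a window, 10 windows in all, which were searched on both strands and set beside 32851 windows of the same length over all genes. The motifs were picked with the values known. The E-box, the core of sites bound by ChREBP and by many other factors of its class, was in the Acsm5 window alone, at position -132 from the start, and in 7.15% of all windows. A pair of exact E-boxes with 5 bases between them, which contains the single E-box, was in 0 of the 32851 windows. A direct repeat of AGGTCA with 1 base between the copies, a form bound by PPAR and HNF4 receptors, was in no window of a member and in 0.0396% of all windows. The STAT motif, bound by STAT5, through which growth hormone acts in liver, was in the Acsm1 window alone, starting at position -5, and in 8.3% of all windows. Each match describes letters in this stretch and is not a measured binding site.

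Mlxipl checked the labels. It ran between 10.74 and 10.96 in ChREBP livers and between 9.07 and 9.61 in GFP livers, on the log2 scale of the deposited values, which is used for every level and difference given here. The difference, ChREBP minus GFP, was 1.57 (SE 0.09), or 2.98-fold, with a limma adjusted p of 2.86e-08. The array does not separate vector transcript from the mouse's own.

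All 4 measured Acsm genes were lower in ChREBP livers, and of the 3 measured Acsl genes Acsl5 was higher, Acsl6 was lower and Acsl4 did not pass. In limma over all 19938 genes, with a Benjamini-Hochberg adjusted p under 0.05 as the threshold, 6 of the 7 members passed, where 27% of all genes did. Of these, 5 were lower, beside 13.7% of all genes, and 1 was higher, beside 13.3%. Beside the 2645 genes higher and 2730 lower in this fit, centring each array on its median gave 2194 higher and 5595 lower, and the members kept the same calls. The groups did not overlap in 4 members, 1 above and 3 below, where 15.2% of genes did not overlap (8.33% above and 6.83% below). The median difference was -0.36 over the 7 members and -0.04 over all genes, of which 61.4% had a negative difference. Most changes were small, and 1 member, Acsm1, differed at least 1.5-fold with an unadjusted p under 0.05, as did 5.7% of all genes in either direction and 1.6% of them as lower.

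**Figure D1:**
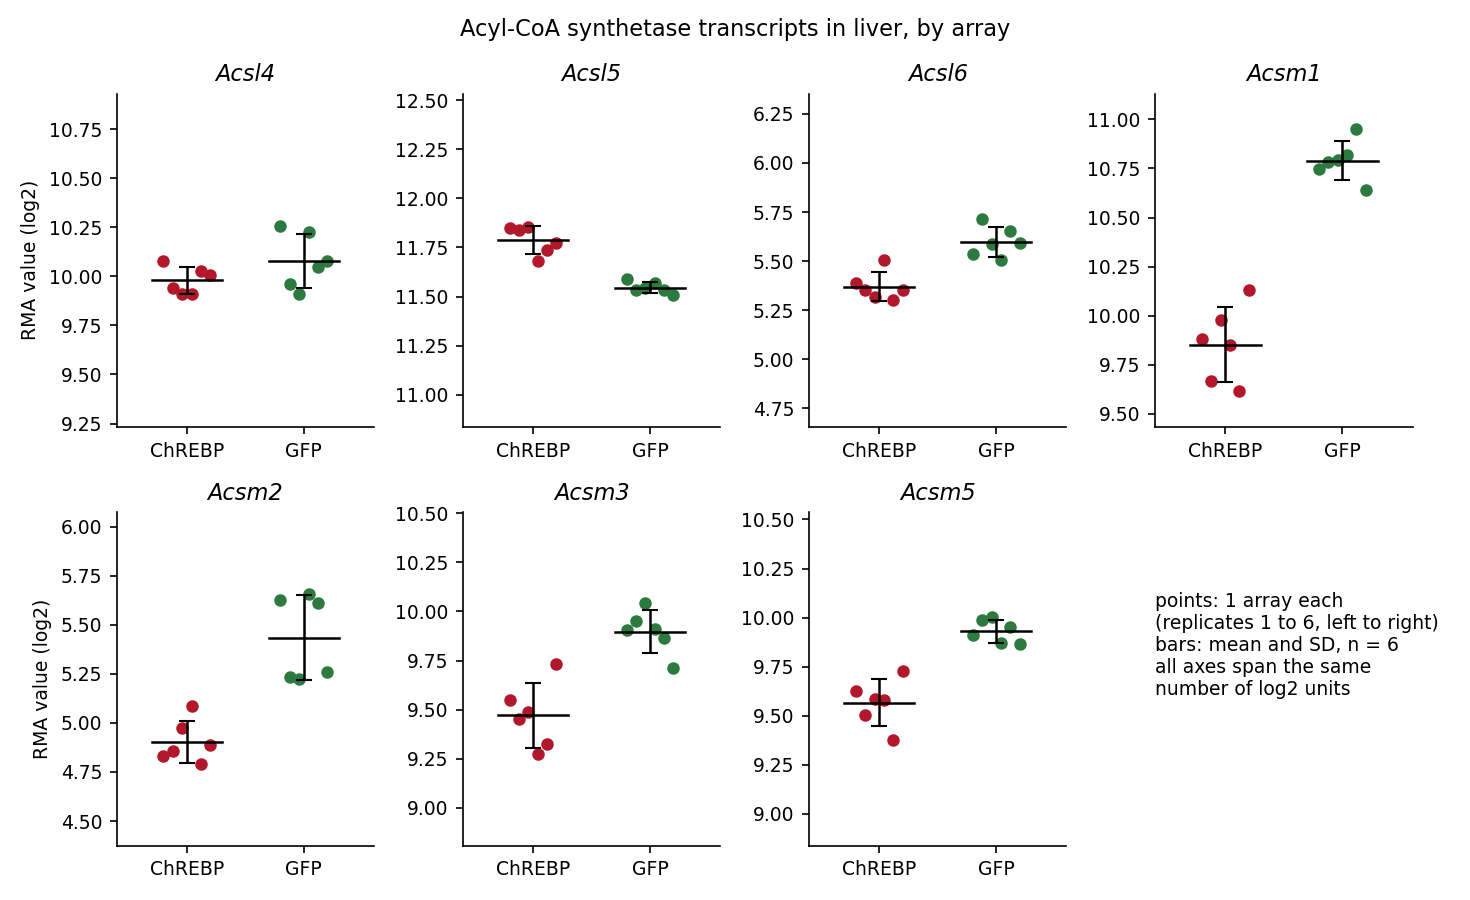
RMA value (log2, vertical axis) of the 7 measured acyl-CoA synthetase genes on each array, with 6 ChREBP arrays (red points) left of 6 GFP arrays (green points), replicates 1 to 6 from left to right, with the mean and SD as black bars. Every axis spans the same number of log2 units, so the gap of Acsm1 (9.61 to 10.13 in ChREBP livers, 10.64 to 10.95 in GFP livers) can be set against the smaller ones of Acsl5, Acsm2 and Acsm5, while Acsl4 overlaps.

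Acsm1, known from biochemical work as a mitochondrial butyryl-CoA synthetase, fell the most. Its lowest, median and highest values were 9.61, 9.87 and 10.13 in ChREBP livers, against 10.64, 10.79 and 10.95 in GFP livers. Every ChREBP array thus lay below every GFP array, and the highest ChREBP array, ChREBP 6, lay 0.51 below the lowest GFP array, GFP 6. The means were 9.85 ± 0.19 in ChREBP livers and 10.79 ± 0.10 in GFP livers (SD, n = 6 each). The difference was -0.94 (SE 0.08, 95% interval -1.11 to -0.76), or 1.91-fold lower, with a limma adjusted p of 1.60e-06. The exact two-sided permutation test gave p = 0.00216, the smallest that the 924 assignments of the arrays to 6 and 6 can give. Over all genes, 108 of them (0.542%) fell at least as much. In whole liver, fewer cells that express a gene and less of its RNA in each cell cannot be told apart. The summed linear value of 5 hepatocyte markers was also lower, at 32080 to 35480 in ChREBP livers and 37640 to 40700 in GFP livers, and its part in the falls of the Acsm genes was not tested.

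Acsm2, the counterpart of human enzymes that activate benzoate and other xenobiotic acids, was read by a dim row, below the median of the table in both groups. Its values were 4.79, 4.87 and 5.08 in ChREBP livers, against 5.23, 5.44 and 5.66 in GFP livers, given as lowest, median and highest. The groups did not overlap, and the GFP values were spread, with GFP 2, GFP 3 and GFP 6 between 5.23 and 5.26 and GFP 1, GFP 4 and GFP 5 between 5.61 and 5.66. The mean was 4.90 ± 0.11 in ChREBP livers and 5.44 ± 0.22 in GFP livers (SD, n = 6 each), a difference of -0.53 (SE 0.09, 95% interval -0.73 to -0.34), or 1.45-fold lower. The limma adjusted p was 0.000547 and the exact permutation p 0.00216. Over all genes 2.08% fell at least as much. Detection was not called here, and this row was among the 25% dimmest genes that an alternative fit left out.

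Acsm3, first found as a gene whose expression differs between hypertensive and normal rats, also fell. It had 9.27, 9.47 and 9.73 as lowest, median and highest value in ChREBP livers, against 9.71, 9.91 and 10.04 in GFP livers. The groups met only at their edges, where ChREBP 6 (9.73) lay just above GFP 6 (9.71). With means of 9.47 ± 0.17 in ChREBP livers and 9.90 ± 0.11 in GFP livers (SD, n = 6 each), the difference was -0.43 (SE 0.08, 95% interval -0.59 to -0.26), or 1.34-fold lower. The limma adjusted p was 0.000828 and the exact permutation p 0.00433. Over all genes 3.27% fell at least as much.

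Acsm5, a less studied relative in the same family, had the smallest fall of the 4. Its lowest, median and highest values were 9.38, 9.58 and 9.73 in ChREBP livers, against 9.87, 9.93 and 10.00 in GFP livers. All ChREBP arrays lay below all GFP arrays, with a narrow gap of 0.14. The mean was 9.57 ± 0.12 in ChREBP livers and 9.93 ± 0.06 in GFP livers (SD, n = 6 each), so that the difference was -0.36 (SE 0.06, 95% interval -0.49 to -0.24), or 1.29-fold lower (limma adjusted p of 0.000264, exact permutation p = 0.00216). Over all genes 4.48% fell at least as much.

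Within the ChREBP group the same arrays often stood at the ends. ChREBP 6 was the highest ChREBP array for Acsm1, Acsm3 and Acsm5, and ChREBP 5 was the lowest for Acsm1, Acsm2 and Acsm5. The 95% interval of the difference of Acsm1 (-1.11 to -0.76) lay wholly below those of Acsm2, Acsm3 and Acsm5, whose intervals overlapped one another. Acsm4, the remaining mouse Acsm gene and not a member, was also lower, at 4.94 ± 0.10 in ChREBP livers and 5.14 ± 0.09 in GFP livers (SD, n = 6 each). Its difference was -0.21 (limma adjusted p of 0.0152), again from a dim row, so that 5 of 5 Acsm genes were lower.

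Acsl5, which in liver lies on the endoplasmic reticulum and the outer mitochondrial membrane, was the only member higher in ChREBP livers. Its lowest, median and highest values were 11.68, 11.80 and 11.86 in ChREBP livers, against 11.51, 11.54 and 11.59 in GFP livers. The groups did not overlap, although the lowest ChREBP array, ChREBP 4, was only 0.09 above the highest GFP array, GFP 1. The means were 11.79 ± 0.07 in ChREBP livers and 11.55 ± 0.03 in GFP livers (SD, n = 6 each), a difference of 0.24 (SE 0.04, 95% interval 0.15 to 0.33), or 1.18-fold. The limma adjusted p was 0.000641 and the exact permutation p 0.00216. A rise of this size was common, since 12.6% of all genes rose at least as much.

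Acsl6, which is best known from brain, where it handles docosahexaenoic acid, was read by a dim row below the table's median. It had 5.30, 5.35 and 5.51 in ChREBP livers as lowest, median and highest value, against 5.51, 5.59 and 5.71 in GFP livers. The groups touched where ChREBP 4 and GFP 4 were both at 5.51. The mean was 5.37 ± 0.07 in ChREBP livers and 5.60 ± 0.08 in GFP livers (SD, n = 6 each), a difference of -0.23 (SE 0.05, 95% interval -0.33 to -0.12), or 1.17-fold lower, with a limma adjusted p of 0.00333 and an exact permutation p of 0.00433. A fall of this size was also common, since 9.89% of all genes fell at least as much.

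Acsl4, which prefers arachidonate and feeds polyunsaturated phospholipids that can be peroxidised, did not pass. Its lowest, median and highest values were 9.91, 9.97 and 10.08 in ChREBP livers, against 9.91, 10.06 and 10.26 in GFP livers. The groups overlapped over most of their range, and GFP 1 and GFP 4 were the arrays that lay above every ChREBP array. The mean was 9.98 ± 0.07 in ChREBP livers and 10.08 ± 0.14 in GFP livers (SD, n = 6 each), a difference of -0.10 (SE 0.06, limma adjusted p of 0.263, exact permutation p = 0.154). The 95% interval ran from -0.24 to 0.04, so that a fall of the size of that of Acsl6 lay just within it and a rise of the size of that of Acsl5 did not.

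**Figure D2:**
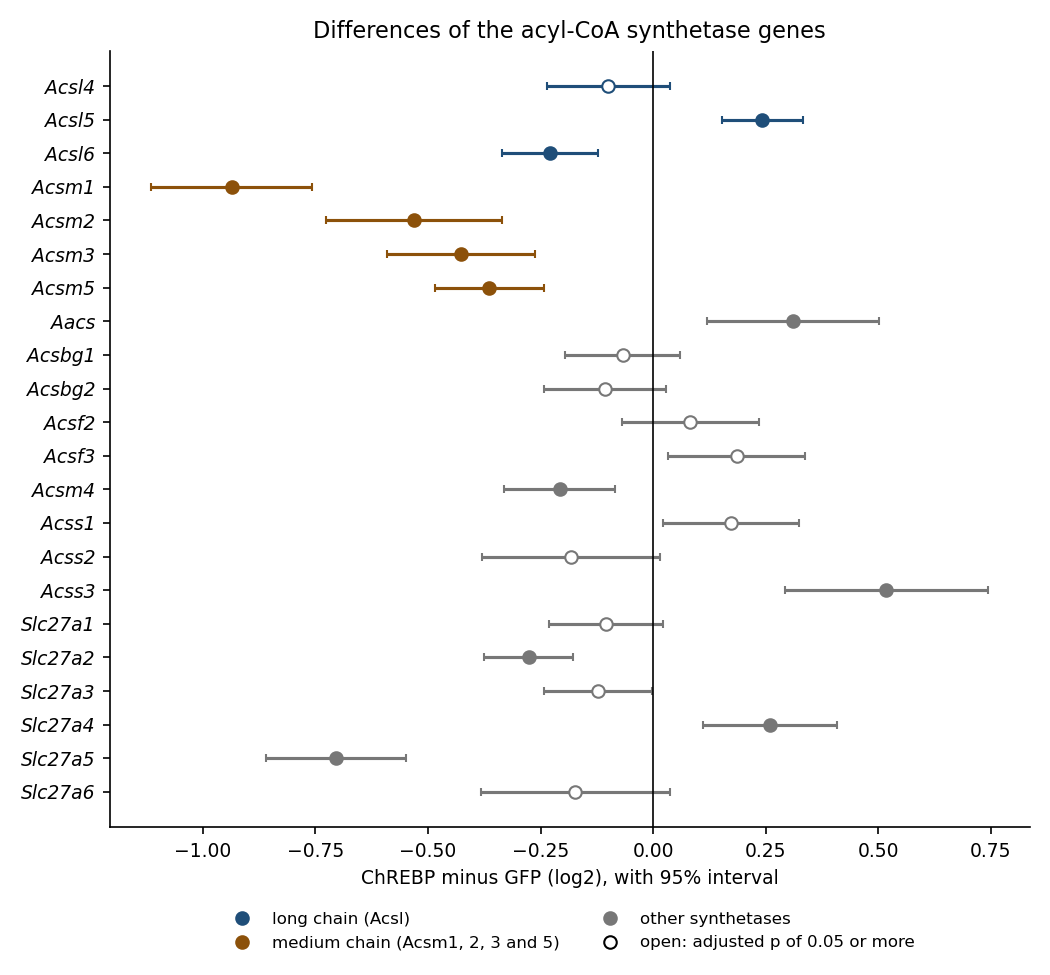
Difference between ChREBP and GFP livers (log2, horizontal axis, ChREBP minus GFP) of the 7 measured members and 15 other acyl-CoA synthetase genes, as points with 95% intervals, filled where the adjusted p was under 0.05. The Acsm genes lie left of 0, from -0.94 for Acsm1 to -0.21 for Acsm4, and Acsl5 (0.24) is the only member to the right of it.

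The other synthetases went both ways. Of 15 such genes 3 were higher, 3 lower and 9 did not pass, with a median of -0.10. Over all genes 13.3% passed as higher and 13.7% as lower, and the counts of this and the later lists stand beside these shares. Slc27a5, the liver bile acyl-CoA synthetase that also takes up fatty acids, was lower at 10.89 ± 0.17 in ChREBP livers and 11.60 ± 0.07 in GFP livers (SD, n = 6 each), a difference of -0.70. Slc27a2, a very long chain synthetase, was lower by a smaller amount (-0.28), and the third was Acsm4. Those higher were Acss3, a mitochondrial short chain synthetase (0.52), Aacs, the acetoacetyl-CoA synthetase (0.31), and Slc27a4, another fatty acid transport protein (0.26). The call of Aacs was lost when quantile normalization was repeated (adjusted p = 0.0642), and that of Slc27a4 with this setting (adjusted p = 0.0551), with the replicate block (adjusted p = 0.0508) and without GFP 4, GFP 6 and ChREBP 6 (adjusted p = 0.0725).

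Genes that bring fatty acids to the synthetases were mostly higher where they changed. In the list of fatty acid uptake and acyl-CoA binding 5 of 11 genes were higher and 1 lower, with a median of 0.19. Cd36, a fatty acid translocase, was at 11.48 ± 0.14 in ChREBP livers and 9.49 ± 0.28 in GFP livers (SD, n = 6 each), a difference of 1.99. The lipoprotein receptor gene Vldlr (1.49), the binding protein gene Fabp4 (1.37) and the lipase gene Lpl (1.35) were higher as well, with a smaller rise of Fabp2 (0.19), while Acbd4, an acyl-CoA binding protein gene, was lower (-0.24). Fabp4 and Lpl are also adipocyte transcripts, and the summed linear value of 4 other adipocyte markers ran from 190.9 to 734.1 in ChREBP livers and from 207.9 to 606.3 in GFP livers, highest on ChREBP 6, GFP 4 and GFP 6. Without these 3 arrays the 6 members that passed still did. With median centring Fabp2 was not called (adjusted p = 0.0598).

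In the list of coenzyme A synthesis and turnover the changed genes went both ways. Of 12 genes 3 were higher and 1 was lower, where 13.3% of all genes passed as higher and 13.7% as lower. The median was 0.01. Vnn1, a pantetheinase that recycles coenzyme A breakdown products, was at 9.26 ± 0.15 in ChREBP livers and 7.28 ± 0.27 in GFP livers (SD, n = 6 each), a difference of 1.98. Nudt7, which degrades coenzyme A in peroxisomes, was at 10.72 ± 0.26 in ChREBP livers and 11.91 ± 0.11 in GFP livers (SD, n = 6 each), a difference of -1.20. The synthesis genes Ppcs (0.39) and Pank2 (0.25) were also higher.

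The acyl-CoA thioesterases, which undo the reaction of the synthetases, were largely higher. Of 10 genes 8 were higher and 0 lower, with a median of 0.60. The peroxisomal Acot3 was at 6.85 ± 0.27 in ChREBP livers and 5.65 ± 0.14 in GFP livers (SD, n = 6 each), a difference of 1.19. The mitochondrial Acot2 (0.76), Acot11, a thioesterase of brown fat (0.67), and Acot7, the brain acyl-CoA hydrolase (0.54), were higher too, as were Acot9 (1.12) and Acot4 (0.82), named here for their size after the values were seen. Acot1, the cytosolic relative, was at 0.26 (adjusted p = 0.158), and Acot12, an acetyl-CoA hydrolase, at -0.14 (adjusted p = 0.101). Acot12 became a lower call with median centring (-0.19, adjusted p = 0.0235), without ChREBP 4 (-0.17, adjusted p = 0.0496) and without GFP 4, GFP 6 and ChREBP 6 (-0.21, adjusted p = 0.0483). Acot1, Acot2, Acot3 and Acot4 are close relatives, and the split of a change among their probes is uncertain.

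The genes that use acyl-CoA are given by route. In the carnitine shuttle and mitochondrial beta-oxidation 4 of 15 genes were higher and 4 lower, with a median of -0.09. The last steps of the long chain spiral, Hadhb (0.26) and Hadha (0.18), the short chain dehydrogenase Hadh (0.32) and the carnitine carrier Slc25a20 (0.19) were higher. Acaa2, the matrix thiolase (-0.25), Echs1, the short chain hydratase (-0.21), and the electron transfer genes Etfdh (-0.28) and Etfa (-0.16) were lower. The call of Slc25a20 was lost with median centring (adjusted p = 0.0730) and without GFP 4, GFP 6 and ChREBP 6 (adjusted p = 0.0847), and that of Etfa when quantile normalization was repeated (adjusted p = 0.0881). In peroxisomal beta-oxidation 4 of 8 measured genes were higher, with a median of 0.34: Abcd2, a transporter of very long chain acyl-CoA (1.85), Crat, the carnitine acetyltransferase (1.00), the thiolase Acaa1b (0.73) and the bifunctional enzyme Ehhadh (0.61). Crot, the octanoyltransferase for medium chains, was lower (-0.18), a call lost when quantile normalization was repeated (adjusted p = 0.0566) and without GFP 4, GFP 6 and ChREBP 6 (adjusted p = 0.0546).

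Esterification into glycerolipids held 8 genes higher and 2 lower of 13 measured, with a median of 0.25. Mogat1, a monoacylglycerol acyltransferase, was at 7.94 ± 0.27 in ChREBP livers and 5.22 ± 0.18 in GFP livers (SD, n = 6 each), a difference of 2.72, followed by Dgat1, which makes triglyceride from diacylglycerol (1.19), Lpcat3, which places polyunsaturated chains in phospholipids (0.60), and Gpam, which starts glycerolipid synthesis (0.57). Dgat2 (-0.21) and the phosphatidate phosphatase gene Lpin2 (-0.31) were lower, Lpin2 not without GFP 4, GFP 6 and ChREBP 6 (adjusted p = 0.0850). Of the 8 higher, the acyltransferase gene Agpat2 (0.25) lost its call in 13 of 24 alternative settings (adjusted p from 0.0528 to 0.107) and its relative Agpat3 (0.14) in 12 of 24 (adjusted p from 0.0565 to 0.166), both with median centring and with the replicate block. With arrays left out singly, the call of Agpat2 held only when the one removed was GFP 1, GFP 2, GFP 4 or ChREBP 5, and that of Agpat3 only when it was GFP 1, GFP 5, ChREBP 3 or ChREBP 5.

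Glycine conjugation, which takes up acyl-CoA made by Acsm enzymes, was lower in all 3 of its measured genes, with a median of -0.42. Keg1, which is related in sequence to glycine acyltransferases, was at 10.49 ± 0.33 in ChREBP livers and 11.75 ± 0.13 in GFP livers (SD, n = 6 each), a difference of -1.26, and Glyat, the glycine acyltransferase itself, differed by -0.40. The third, a predicted gene, differed by -0.42. In none of the 3 did the groups overlap. Over all genes 13.7% passed as lower, and in 6.83% ChREBP lay below GFP without overlap.

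Around Acsl4, the list of polyunsaturated lipid peroxidation held 5 of 7 measured genes that were higher and 0 that were lower. Slc7a11, the cystine transporter that feeds glutathione synthesis, had the largest difference (3.13), at 7.66 ± 0.32 in ChREBP livers and 4.53 ± 0.19 in GFP livers (SD, n = 6 each). Lpcat3 (0.60), the glutathione peroxidase Gpx4 that reduces lipid peroxides (0.45), the lipoxygenase gene Alox15 (0.32) and the ubiquinone reductase gene Aifm2 (0.26) were smaller rises. Slc7a11, Gpx4 and Aifm2 are known to protect from peroxidation, and Lpcat3 and Alox15 to favour it.

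Of 12 measured transcription factors of fatty acid metabolism 2 were higher, Mlxipl and Pparg (1.21), and 3 were lower: Rxra, the partner of the PPAR receptors (-0.40), the hepatocyte factor Hnf4a (-0.33) and Srebf2 (-0.15). Of all genes 13.3% passed as higher and 13.7% as lower. The call of Srebf2 was lost without GFP 4, GFP 6 and ChREBP 6 (adjusted p = 0.0845). Among 13 textbook targets of ChREBP 11 were higher and 0 lower, with a median of 1.02. Those with the smallest p were Elovl6 (2.16), Gpd1 (1.49), Me1 (1.11) and Acaca (1.70). Txnip (0.01, limma adjusted p of 0.944) and G6pc (0.08, limma adjusted p of 0.704) did not pass.

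**Figure D3:**
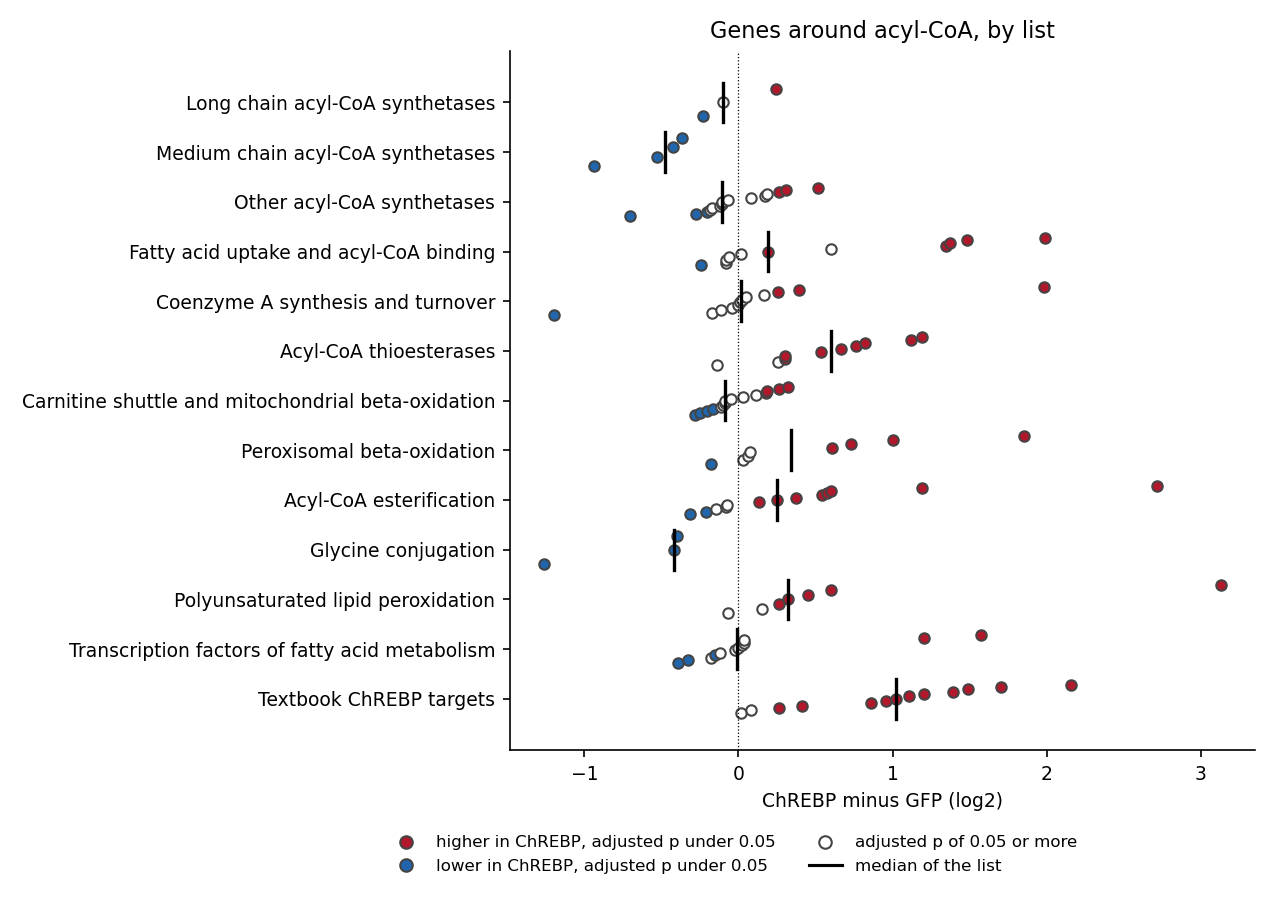
Difference between ChREBP and GFP livers (log2, horizontal axis, ChREBP minus GFP) of every measured gene in the lists around acyl-CoA, 1 row per list, red for genes higher and blue for genes lower in ChREBP livers at an adjusted p under 0.05, open where the adjusted p was 0.05 or more, with a black bar at the median of the list. The medium chain synthetases (median -0.48) and glycine conjugation (median -0.42) lie left of 0, and the thioesterases (median 0.60) and textbook ChREBP targets (median 1.02) right of it.

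The Acsm genes lie next to one another on chromosome 7, so that their neighbours could be read on the same arrays. In RefSeq order the genes run Acsm5, Acsm2, Acsm1, Acsm4, Thumpd1 and Acsm3. There were 13 measured genes that are not Acsm genes, 6 on each side and Thumpd1 between them. Of these 13, 1 was lower, 2 were higher and 10 did not pass, with a median of 0.10. All 5 Acsm genes were lower. Over all genes 27% passed, 13.7% as lower and 13.3% as higher, so the neighbours passed at about the ordinary rate. The lower one was Pdilt, a protein disulfide isomerase of the testis that lies next to Acsm5 and whose annotation overlaps that of Acsm5. It was at 6.74 ± 0.33 in ChREBP livers and 7.89 ± 0.12 in GFP livers (SD, n = 6 each), a difference of -1.15, and signals of overlapping genes may not be fully separable. The annotation of Acsm3 likewise overlaps that of Eri2, which did not pass (0.21, limma adjusted p of 0.117). Gprc5b, an orphan receptor gene, was higher (2.00), and Rexo5, an RNA exonuclease gene, was higher by 0.26 in a call (adjusted p = 0.0453) that 15 of the alternative settings lost. These neighbours were taken by position after the values had been seen.

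**Figure D4:**
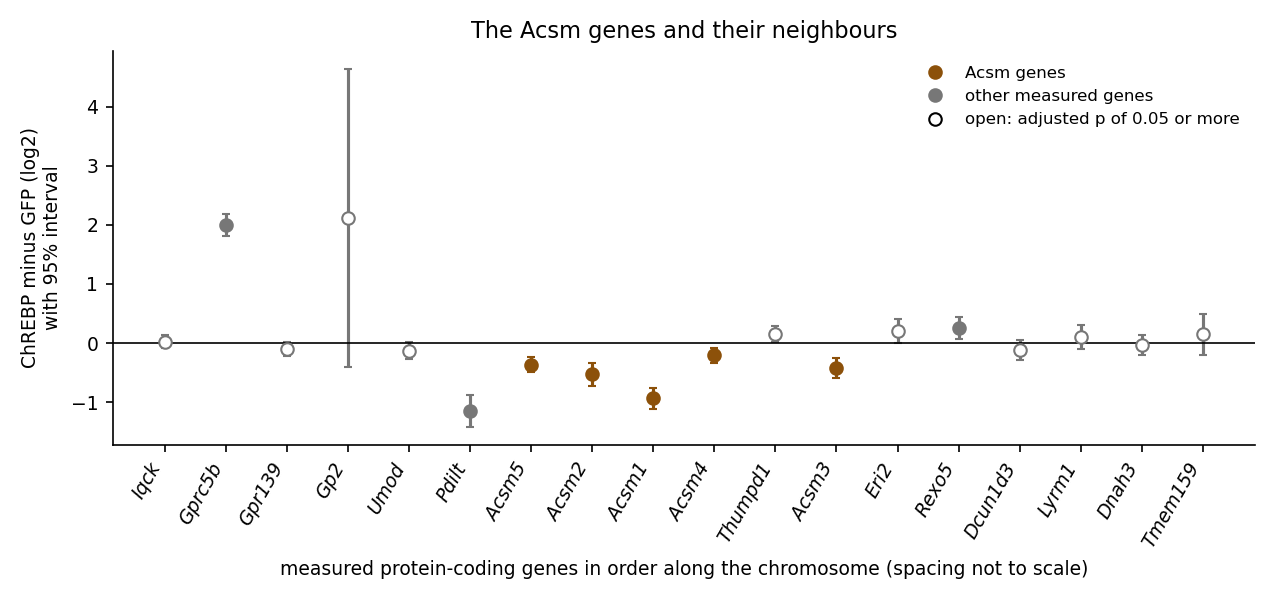
Difference between ChREBP and GFP livers (log2, vertical axis, ChREBP minus GFP, with 95% intervals) of the measured protein-coding genes around the Acsm genes of chromosome 7, in their order along it with spacing not to scale, brown for Acsm genes and grey for other genes, open where the adjusted p was 0.05 or more. Of the filled points, the 5 Acsm genes and Pdilt (-1.15) lie below 0, and Gprc5b (2.00) and Rexo5 (0.26) above it. The highest point is open, that of Gp2 (2.12, 95% interval -0.41 to 4.64), whose values were widely spread in ChREBP livers (SD 3.35).

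The genes whose pattern was most like those of the extreme members were found by the root mean square distance over the 12 arrays. Each value was taken from the mean of the gene's GFP arrays, so the distance favours genes with a difference of like size. Predicted genes, Riken clone genes and small RNAs were left out. For Acsl5 they were Dynlrb1, a dynein light chain gene (distance 0.0373, difference 0.22), Rtn3, a reticulon gene of the endoplasmic reticulum (0.0425, difference 0.24), and Cs, the citrate synthase gene (0.0444, difference 0.27). For Acsm1 they were Masp1, a protease gene of the lectin pathway of complement (distance 0.0764, difference -0.99), Nnmt, which methylates nicotinamide (0.0796, difference -0.96), and Mbl1, a mannose-binding lectin gene (0.0853, difference -0.94).

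Other cells and arrays were checked against marker lists. Of 5 measured hepatocyte markers 4 were lower and 0 higher, by -0.11 (Ttr) to -0.43 (Cps1), with Alb at -0.07 (adjusted p = 0.205). In macrophage markers 6 of 12 were higher and 4 lower (sums of 5495 to 7528 in ChREBP livers, 4564 to 5488 in GFP livers), and in T and NK cell markers 7 of 10 were higher and 0 lower (742.6 to 1309 in ChREBP livers, 443 to 609.6 in GFP livers). Erythroid markers summed to 287.6 to 440.3 in ChREBP livers and 716.4 to 843.1 in GFP livers. Most of this sum is Alas2, the brightest of them (mean of 9.32 in GFP livers) and the only one that passed. Epb42 (-0.14), Rhag (-0.05) and Slc4a1 (-0.0004) did not pass. The sums of these 4 lists did not overlap between the groups, and their part in the members' differences was not tested. Of the other marker genes, 2 of 5 cholangiocyte, 1 of 6 endothelial and 2 of 6 stellate cell markers were higher, and 1 of 4 adipocyte markers and 1 of 4 erythroid markers (Alas2, -1.43) were lower. Over all genes 13.3% passed as higher and 13.7% as lower. None of the 8 pancreatic acinar markers passed, and they summed to 39000 on ChREBP 4 and 34040 on ChREBP 5, against 570.4 to 1496 on the other 4 ChREBP arrays and 623.2 to 696.7 in GFP livers. Without ChREBP 4 and ChREBP 5 the 6 members that passed still did, with differences of -0.88 for Acsm1, -0.34 for Acsm3, -0.32 for Acsm5, -0.25 for Acsl6 and 0.28 for Acsl5. Over all 35556 array rows, with or without a gene symbol, correlations between arrays were 0.979 to 0.995 within a group and 0.971 to 0.986 between the groups.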

How the data were processed

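RNA of 12 livers, 6 per virus, had been read by the authors on mouse gene arrays (Affymetrix), with 1 array for each mouse. The deposited values are log2 values, for which the submitters' processing notes name RMA (background correction, quantile normalization across arrays and median polish) and Partek, versions not stated. The study's array methods describe Phf2 on another array and guided only the test. Array medians ran from 5.96 to 6.05. Scan dates were not used, so no array batch was tested, and the number of arrays limits the precision. Of 35556 rows, 21789 had 1 gene symbol, 1621 had several and 12146 were not listed. Rows with 1 symbol covered 19938 genes, and no dim gene was left out. Of the rows with 1 symbol, 21698 were matched to RefSeq by gene ID and took the RefSeq symbol, which updated old ones.

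The groups were compared by limma 3.58.1 under R 4.3.3 (lmFit, eBayes, two-sided, no covariates) and Benjamini-Hochberg adjustment over all 19938 genes. The procedure was also run on simulated data. There the genes were independent and a small share was changed, unlike these data, where 27% passed. Each limma p-value sets the difference between the groups against the spread between mice within a group, moderated across genes. Members were also tested singly by exact two-sided permutation. Members, lists and tests were chosen with earlier results of these data known, so lists are given by counts and medians only. The genes named are the members and Mlxipl. Of each list, every gene that passed is named where 5 or fewer did, and otherwise the 4 with the smallest p. Genes that complete a small count are named too. So are the 3 genes closest to Acsl5 and Acsm1 once predicted genes, Riken clone genes and small RNAs are left out. Agpat2 and Agpat3, the genes named from the marker lists and the neighbours of the Acsm genes were named after their values were seen. Promoters were taken from RefSeq (GRCm38.p6).

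The alternatives were a repeated quantile normalization, centring on the array median, removing the dimmest 25% of genes, averaging a gene's rows, testing every row, moderation with a trend or made robust, weights per array, the analysis of variance named in the methods, a block for the replicate number, leaving out each array in turn, and the removal of arrays with transcripts of pancreas or fat.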

Additional observations from a re-analysis of the deposited data

How the results depend on the processing

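All 7 measured members kept their direction and their side of the threshold under each of 24 alternative settings, 167 values in all, except that Acsm2 had no value where the 25% dimmest genes were left out. Not every setting could move a difference. With 1 row per member, averaging rows or testing every row left it the same. The other moderations, the analysis of variance, the replicate block and removing dim genes could change only the p-value. The differences ranged from -1.02 to -0.88 for Acsm1, -0.59 to -0.49 for Acsm2, -0.52 to -0.34 for Acsm3, -0.43 to -0.32 for Acsm5, -0.28 to -0.21 for Acsl6, 0.19 to 0.31 for Acsl5 and -0.16 to -0.06 for Acsl4, whose adjusted p ran from 0.0802 to 0.556. With each array left out in turn, 4656 to 5632 genes passed, 2364 to 2648 of them higher and 2263 to 2984 lower, and the members that passed numbered 6 each time. Median centring raised the number of genes lower in ChREBP livers to 5595, against 2730, and put the median of all genes at -0.10, against -0.04. The cause was not tested. Of 1943 values of 81 other genes, 1888 kept direction and call, 52 lost the call, 3 gained it and 0 reversed. For a check of pairing by replicate number, each gene's group mean was first taken off every array, and the remainders were correlated between the groups. Same-numbered arrays correlated at over 0.1 in 1 of 6 pairs (-0.06 to 0.25). Of the ChREBP arrays 1 of 6, ChREBP 6, correlated best with its own number. Little pairing was thus seen, and weak correlations cannot exclude it. With the replicate block 4439 genes passed and 6 members, 5 of them lower. Acsl6 and Acsm2 were read by dim rows, and no detection call was used.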
